A study of Homo sapiens with 12 samples.

Results

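Of the 58735 genes in the expression table of MSTO-211H mesothelioma cells, 9 belong to the set described here, the genes of antigen presentation by major histocompatibility complex (MHC) class I. They were taken by their symbols, HLA-B, HLA-C, HLA-E, HLA-F, B2M, TAP1, TAP2, TAPBP and NLRC5, each of which belongs to 1 row of the table. All 9 averaged at least 1 FPKM over the 12 libraries, as did 13038 genes of the table, and were tested. FPKM is a level scaled to the length of the gene and between libraries, here by a scaling that the sources do not name. Class I molecules carry short peptides from inside the cell to its surface, where CD8 T cells read them. A heavy chain (HLA-B, HLA-C, HLA-E, HLA-F) pairs with the light chain beta-2 microglobulin (B2M) in the endoplasmic reticulum. Peptides enter through the transporter made of TAP1 and TAP2, and tapasin (TAPBP) holds the empty molecule at that transporter until a peptide fits. NLRC5 is a transcriptional coactivator of these genes, and interferons raise most of them; tumour cells often carry them at low levels, and radiation has been reported to raise class I on some tumour cells.

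MSTO-211H is an established human line, and the submitters call the suspension cultures used here mesothelioma-initiating cells. In the Combo group cells received 10 µM QTP, a compound known here by that abbreviation alone, and 4 Gy of radiation on the following day. The Rx group received QTP and a sham exposure, the IR group vehicle and 4 Gy, and the Con group vehicle and a sham exposure, with 3 libraries in each group. The titles say only Combo, Rx, IR and Con, and Rx and Combo were read as the QTP arms because the design has 4 arms. RNA was taken 48 h after irradiation. All groups share 1 cell line grown in medium with growth factors, and the labels name no other cell type in the cultures. The labels do not say whether the 3 libraries of a group are separate cultures, so the tests weigh differences against a spread between libraries that may be technical.

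The deposited FPKM rest on 13188257 to 18630958 whole reads per library. The class I genes took 0.369 to 0.461% of these reads, with means of 0.438 ± 0.0326% in Combo, 0.423 ± 0.0286% in Rx and 0.446 ± 0.0125% in IR, against 0.389 ± 0.0235% in Con (SD, n = 3 each). Library IR 3 stood apart, with the fewest genes above 0 (23102), the largest mitochondrial share of reads (10.5%) and the largest share of summed FPKM in the 100 highest genes of the table (49.0%). Libraries IR 3 and Combo 3 lay at opposite ends of the first principal component, at 28.7 and -21.5. Among 13 listed genes that mark immune, endothelial or fibroblast cells, 9 had means below 0.1 FPKM, and the T cell gene CD3E and the myeloid gene LYZ had 0 reads in every library, which allows up to 3 reads per library for counting error. The summed level of these 13 markers was 8.99 to 12.1 FPKM in Combo, 8.31 to 10.2 in Rx and 8.73 to 9.99 in IR, against 7.53 to 9.20 in Con. LUM, COL1A1 and PDGFRB, listed for fibroblasts, averaged 4.98, 2.49 and 1.55 FPKM, while DCN, also listed for them, averaged 0.0415. In Combo against Con the first 3 changed by 0.45, 0.10 and -0.11 on the log2(FPKM + 1) scale. Of 10 mesothelial markers, 5 averaged at least 1 FPKM, among them mesothelin (MSLN, 40.1 FPKM) and the keratins KRT8 (476) and KRT18 (549). A further 3 of the 10 averaged below 0.1 FPKM, among them PDPN with 0 reads in every library.

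The 9 genes spanned from the top of the expressed genes to their middle. HLA-B averaged 463 FPKM over the 12 libraries and ranked 53 of the 13038 tested genes. HLA-C averaged 271, B2M 224 and HLA-E 136 FPKM, and these 4 genes stood at percentiles of 98.4 to 99.6 of the tested genes. The loading genes were an order lower, with means of 22.3 FPKM for TAPBP, 19.3 for TAP1 and 6.84 for TAP2. HLA-F, a heavy chain kept largely inside most cells, averaged 7.59 FPKM and NLRC5 5.90 FPKM, near the middle of the tested genes (percentiles 58.1 and 49.6). The order HLA-B, HLA-C, B2M, HLA-E, TAPBP, TAP1, HLA-F, TAP2, NLRC5 held between neighbours in 12 of 12 libraries, except that TAPBP and TAP1, HLA-F and TAP2, and TAP2 and NLRC5 held it in 11 of 12. The ranges over libraries were apart between HLA-B and HLA-C, B2M and HLA-E, HLA-E and TAPBP, and TAP1 and HLA-F, and overlapped between the other 4 neighbouring pairs. The summed level of these 4 heavy chains was 3.69 to 4.35 times that of B2M in every library. These FPKM rest on the gene lengths of the table, which exceed those of the longest annotated protein-coding transcript by unequal amounts. The lengths were 6079 against 1705 bases for B2M and 3051 against 1547 for HLA-B. The order of the genes and the ratios between them depend on these lengths. Reads behind a value ran from 424 (HLA-F) to 28919 (HLA-B) per library, so counting error weighed most on HLA-F and TAP2.

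Of the 9 genes, 7 lie in the MHC region of chromosome 6 (hg38, as the table gives it). HLA-C spans 31268749 to 31272130 and HLA-B 31269491 to 31357188, both on the minus strand, and the 2 spans overlap because 1 of 10 annotated HLA-B transcripts (GENCODE release 29) reaches into HLA-C. HLA-F spans 29722775 to 29738528 and HLA-E 30489467 to 30494205, both on the plus strand. TAP2 (32821833 to 32838780), TAP1 (32845209 to 32853978) and TAPBP (33299694 to 33314387) are on the minus strand, and TAP1 overlaps PSMB9, an immunoproteasome gene on the other strand at 11.1 FPKM. B2M lies on chromosome 15 (44711487 to 44718877) and NLRC5 on chromosome 16 (56989485 to 57083531), where a low antisense gene overlaps it. Shared sequence limits these values: of all 50-base stretches of an annotated transcript, 2.54% in HLA-B, 6.71% in HLA-C, 5.13% in HLA-E, 1.70% in HLA-F, 5.99% in TAPBP, 1.07% in TAP1 and 35.8% in TAP2 also occur in another gene. For B2M and NLRC5 this share was 0. TAP2 overlaps the protein-coding gene AL669918.1 on the same strand (0 FPKM), and how much of its shared sequence lies there was not tested. Whether the counting used strand, and how it treated reads that fit several genes, is not given in the sources used here, so the values of overlapping genes and of these near copies are uncertain to that extent.

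The promoters of HLA-B, HLA-C, B2M and TAP1 are shown because the levels of HLA-B, HLA-C and B2M varied together across libraries, while r between TAP1 and these genes was -0.37 to -0.27. Each line gives the 250 bases before the annotated start (RefSeq, GRCh38.p14), 5′ to 3′ on the gene's own strand, with matches in capitals; 7 of the 9 genes had such a sequence. The windows are chr6:31357180-31357429 for HLA-B, chr6:31272093-31272342 for HLA-C and chr6:32853705-32853954 for TAP1, all minus, and chr15:44711267-44711516, plus, for B2M. Capitals mark matches on either strand to 4 patterns. They are the core of the interferon-response element (GAAA, or its short form GAA, then 2 free bases, then GAAA) and an NF-kB element (GGG, then 2 free bases, then TT, 1 free base and CC). The others are the half-site of the cyclic AMP element (TGACG) and the CCAAT box (CCAAT).
HLA-B: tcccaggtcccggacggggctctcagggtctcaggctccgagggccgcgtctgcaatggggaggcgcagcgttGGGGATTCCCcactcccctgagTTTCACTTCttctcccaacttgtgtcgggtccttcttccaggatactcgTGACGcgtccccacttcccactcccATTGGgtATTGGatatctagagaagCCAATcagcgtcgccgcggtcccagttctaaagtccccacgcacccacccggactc
HLA-C: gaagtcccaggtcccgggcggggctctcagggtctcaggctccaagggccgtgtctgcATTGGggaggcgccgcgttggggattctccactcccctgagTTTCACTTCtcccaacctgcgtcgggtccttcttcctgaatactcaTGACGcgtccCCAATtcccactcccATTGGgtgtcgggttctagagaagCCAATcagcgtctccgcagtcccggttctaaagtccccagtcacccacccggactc
B2M: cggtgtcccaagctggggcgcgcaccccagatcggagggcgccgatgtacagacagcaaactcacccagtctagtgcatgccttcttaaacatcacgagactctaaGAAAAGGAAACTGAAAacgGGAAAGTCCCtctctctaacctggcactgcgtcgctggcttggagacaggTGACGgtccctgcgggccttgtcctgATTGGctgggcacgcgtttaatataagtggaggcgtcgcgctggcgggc
TAP1: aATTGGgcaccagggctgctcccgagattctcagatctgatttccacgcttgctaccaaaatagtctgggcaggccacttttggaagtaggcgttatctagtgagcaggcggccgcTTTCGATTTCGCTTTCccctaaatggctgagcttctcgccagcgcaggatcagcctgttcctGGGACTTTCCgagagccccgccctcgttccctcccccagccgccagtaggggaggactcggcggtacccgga
An interferon-response core in either form was found in 7 of 7 windows, against 9.08% of all 35116 RefSeq windows of this length, and the NF-kB pattern in 4 of 7 (HLA-B, B2M, TAP1 and TAPBP), against 5.07%. The cyclic AMP half-site was found in 4 of 7 (HLA-B, HLA-C, B2M and TAP2), against 21.2%, and the CCAAT box in 5 of 7, against 32.0%. As background, the module through which NLRC5 acts on class I genes holds a site like the cyclic AMP element followed by an inverted CCAAT box. Counted back from the start, the half-site began at -106 in the HLA-B window and at -105 in the HLA-C window, with an inverted box at -81 in HLA-B and at -80 in HLA-C. The TAP1 window held the interferon-response and NF-kB patterns at -134, -128 and -72, and no cyclic AMP half-site. Successive interferon-response matches overlapped each other in the B2M, TAP1 and TAPBP windows, and in the TAP2 window a match overlapped one of the short form. The patterns were chosen after these windows had been seen, and a match of letters shows neither a bound site nor a cause of any level.

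**Figure D1:**
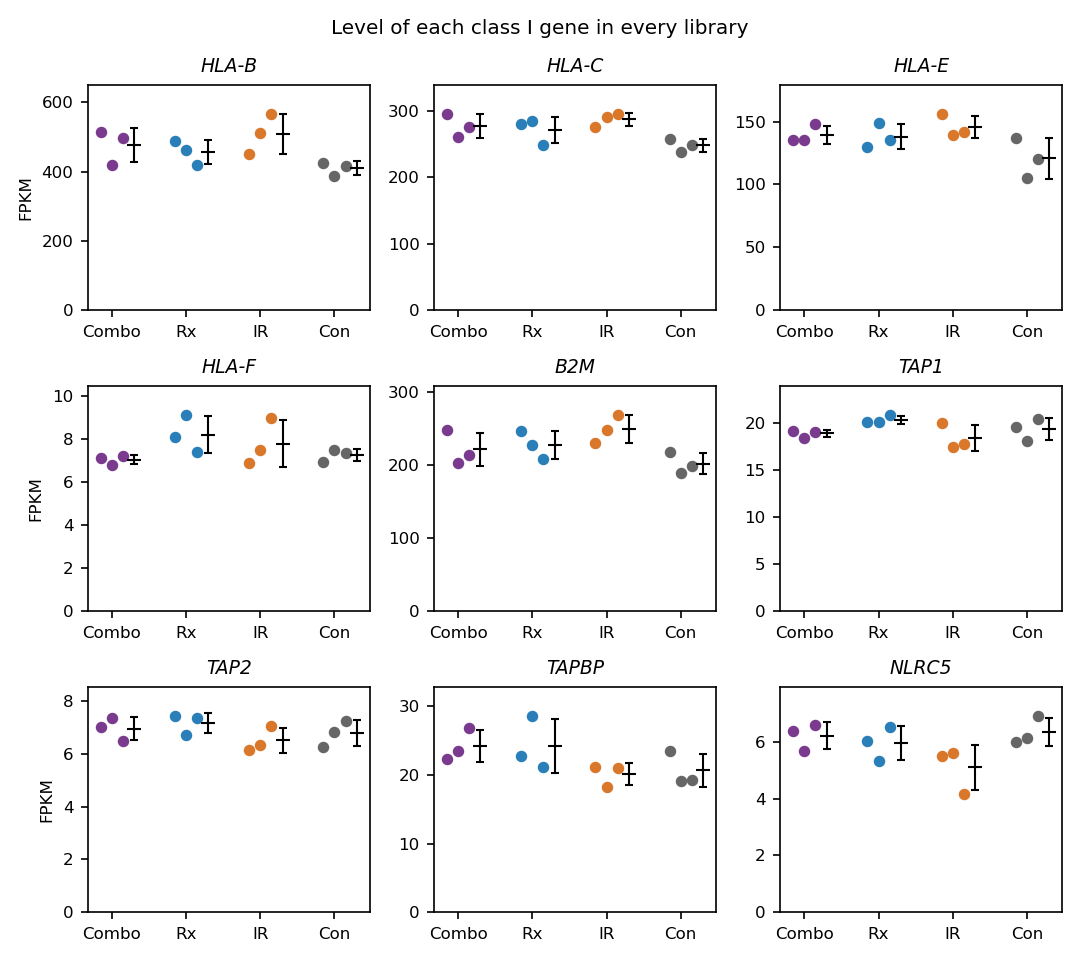
Level of each of the 9 class I genes in FPKM (vertical axes, each starting at 0) in every library of the Combo, Rx, IR and Con groups. Points are libraries, and the bar beside them is the mean ± SD of 3; the IR libraries of HLA-B, HLA-C, HLA-E and B2M all lie above the Con libraries, and those of NLRC5 all lie below.

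Radiation alone was compared first, IR against Con. The heavy chains HLA-B, HLA-C and HLA-E and the light chain B2M had higher levels in every IR library than in any Con library, by 0.21 to 0.31 on the log2(FPKM + 1) scale, and the coactivator NLRC5 had lower levels in every IR library. None of the 9 genes passed an adjusted p of 0.05 in limma's test over 13038 genes, nor did any other gene (0% of those tested), and limma voom on the whole reads also called 0 genes. At an unadjusted p under 0.05 there were 5 of the 9, against 6.86% of tested genes. Groups that did not overlap were found for 4 of the 9 with IR higher, against 5.56% of tested genes, and for 1 of the 9 with IR lower, against 4.98%. The median change of the 9 genes was 0.08, with 5 of 9 means higher, against 0.01 over all tested genes, of which 52.6% had a higher mean. That median is the value of HLA-F, and it was -0.01 without IR 3 and -0.02 after rescaling to TPM.

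HLA-B, a classical heavy chain that presents to CD8 T cells, had 513, 420 and 496 FPKM in Combo, 488, 463 and 419 in Rx and 451, 510 and 566 in IR, against 425, 387 and 416 in Con. All IR libraries were above all Con libraries, while Combo and Rx each overlapped Con. Its log2 change in IR against Con was 0.31 ± 0.11 (SE; 95% interval 0.06 to 0.55; limma adjusted p = 0.687). HLA-C had 295, 260 and 276 FPKM in Combo, 280, 284 and 248 in Rx and 276, 290 and 295 in IR, against 258, 238 and 248 in Con. Both the Combo and the IR libraries were above all Con libraries, Combo by a narrow gap, and the Rx libraries overlapped Con at the low end. The log2 change of HLA-C in IR against Con was 0.21 ± 0.08 (SE; 95% interval 0.03 to 0.39; limma adjusted p = 0.708).

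HLA-E, which shows leader peptides of other class I chains to receptors of natural killer cells, had 135, 135 and 148 FPKM in Combo, 130, 149 and 135 in Rx and 156, 139 and 142 in IR, against 137, 105 and 120 in Con. The Con libraries were the most scattered, and Con 1 came close to the lowest IR library. The log2 change of HLA-E in IR against Con was 0.28 ± 0.10 (SE; 95% interval 0.06 to 0.50; limma adjusted p = 0.687). HLA-F had 7.14, 6.80 and 7.23 FPKM in Combo, 8.12, 9.13 and 7.39 in Rx and 6.91, 7.49 and 9.0 in IR, against 6.96, 7.50 and 7.36 in Con. Its Combo and Con libraries were tight, while Rx and IR each had a single library at about 9 FPKM. For HLA-F the IR change was 0.08 ± 0.09 (SE; 95% interval -0.12 to 0.29; limma adjusted p = 0.846).

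B2M, the light chain that all of these heavy chains need, had 247, 203 and 213 FPKM in Combo, 246, 227 and 208 in Rx and 230, 247 and 268 in IR, against 218, 189 and 198 in Con. All IR libraries were above all Con libraries, and Combo and Rx each overlapped Con. The log2 change of B2M in IR against Con was 0.30 ± 0.10 (SE; 95% interval 0.07 to 0.52; limma adjusted p = 0.680). NLRC5 had 6.37, 5.67 and 6.60 FPKM in Combo, 6.01, 5.32 and 6.53 in Rx and 5.49, 5.61 and 4.17 in IR, against 5.97, 6.14 and 6.90 in Con. The lowest value belonged to IR 3, the library with the highest HLA-B and B2M. The log2 change of NLRC5 in IR against Con was -0.28 ± 0.11 (SE; 95% interval -0.51 to -0.04; limma adjusted p = 0.708). The ratio of B2M to NLRC5 was 41.9, 44.1 and 64.3 in IR, against 36.5, 30.8 and 28.7 in Con.

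Without library IR 3 the log2 change in IR against Con was -0.16 for NLRC5, 0.23 for HLA-B, 0.19 for HLA-C, 0.30 for HLA-E and 0.24 for B2M, so NLRC5 moved the most when that library was left out. Without Con 2, the lowest of the HLA-E libraries, HLA-E was at 0.18. The scaling between libraries also set the size. Rescaled to TPM the changes were 0.20 for HLA-B, 0.10 for HLA-C, 0.17 for HLA-E, 0.19 for B2M and -0.41 for NLRC5, with the median of all tested genes at -0.09. After quantile normalization they were 0.08 for HLA-B, 0.06 for HLA-C, 0.14 for HLA-E, 0.13 for B2M and -0.26 for NLRC5.

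**Figure D2:**
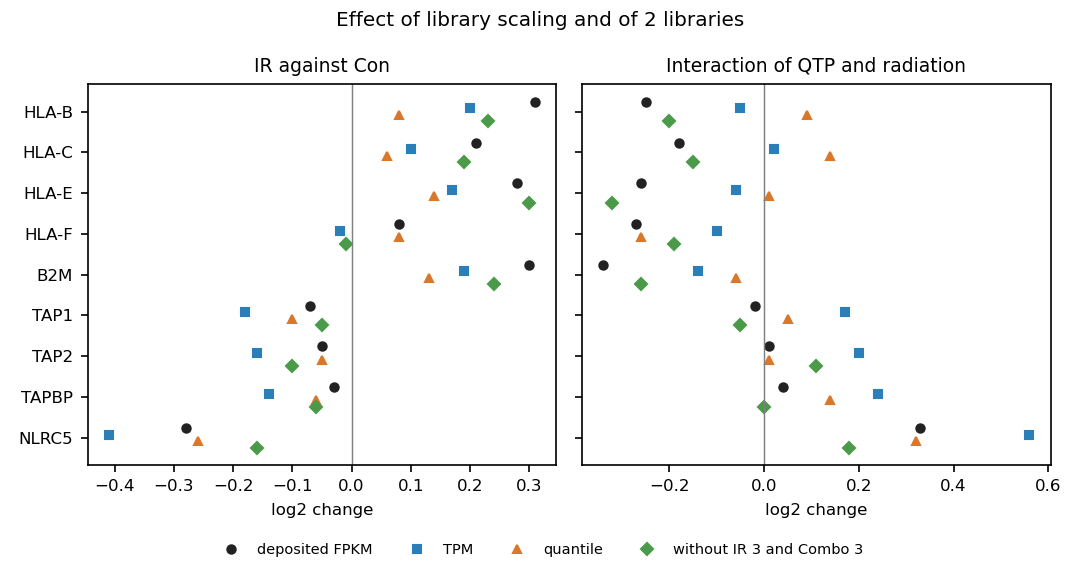
Log2 change (horizontal axes) of the 9 class I genes in IR against Con and in the interaction of QTP and radiation, under the deposited FPKM, TPM, quantile normalization, and without libraries IR 3 and Combo 3. In IR against Con, HLA-B, HLA-C, HLA-E and B2M stay above 0 and NLRC5 below 0 in all 4, with HLA-B between 0.08 and 0.31; in the interaction, HLA-B, HLA-C, HLA-E and TAP1 change sign with the scaling.

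The loading genes had means in IR slightly below those in Con, within the spread between libraries. TAP1 had 19.2, 18.5 and 19.1 FPKM in Combo, 20.1, 20.1 and 20.9 in Rx and 20.0, 17.5 and 17.8 in IR, against 19.6, 18.1 and 20.5 in Con. IR and Con overlapped, and the log2 change of TAP1 in IR was -0.07 ± 0.07 (SE; 95% interval -0.22 to 0.07; limma adjusted p = 0.808). TAP2 had 6.99, 7.35 and 6.47 FPKM in Combo, 7.42, 6.70 and 7.34 in Rx and 6.15, 6.31 and 7.05 in IR, against 6.26, 6.82 and 7.24 in Con. All 4 groups of TAP2 overlapped, with an IR change of -0.05 ± 0.08 (SE; 95% interval -0.22 to 0.11; limma adjusted p = 0.891). TAPBP had 22.4, 23.5 and 26.8 FPKM in Combo, 22.8, 28.6 and 21.1 in Rx and 21.1, 18.3 and 21.0 in IR, against 23.5, 19.2 and 19.3 in Con. TAPBP varied most of the 9 genes over the 12 libraries (coefficient of variation 13.7%), and its IR change was -0.03 ± 0.12 (SE; 95% interval -0.29 to 0.23; limma adjusted p = 0.970). The difference between the heavy chains and the loading genes was not tested.

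QTP alone, Rx against Con, gave 8 of 9 higher means with a median of 0.15, against 0.00 over all tested genes, of which 51.7% had a higher mean. Groups that did not overlap were found for 0 of the 9, against 4.60% of tested genes with Rx higher and 3.18% with Rx lower (7.78% in all). Limma's adjusted p was 1.00 for each of the 9, and 0% of tested genes passed; at an unadjusted p under 0.05 there were 0 of the 9, against 3.26% of tested genes. The largest changes were 0.21 ± 0.12 for TAPBP (SE; 95% interval -0.05 to 0.48), 0.20 ± 0.10 for HLA-E (-0.02 to 0.42) and 0.17 ± 0.10 for B2M (-0.06 to 0.39). Without Rx 2 TAPBP was at 0.09 and the median of the 9 at 0.09, without Con 2 HLA-E was at 0.10, and without Rx 1 B2M was at 0.11. NLRC5 was the gene with a lower mean, at -0.08 ± 0.11 (SE; 95% interval -0.31 to 0.15).

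Both treatments together, Combo against Con, gave 6 of 9 higher means with a median of 0.13, against -0.01 over all tested genes, of which 48.5% had a higher mean. Limma's test called 0 of the 9 and 0% of tested genes, and at an unadjusted p under 0.05 it gave 0 of the 9, against 13.2%. Only HLA-C had Combo libraries all above Con, against 10.0% of tested genes, at 0.16 ± 0.08 (SE; 95% interval -0.02 to 0.34; limma adjusted p = 0.427). HLA-B was at 0.21 ± 0.11 (SE; 95% interval -0.03 to 0.46; limma adjusted p = 0.440) and HLA-E at 0.21 ± 0.10 (-0.01 to 0.44; adjusted p = 0.391), or 0.12 without Con 2. TAPBP stood at 0.22 ± 0.12 (SE; 95% interval -0.04 to 0.49; limma adjusted p = 0.453), B2M at 0.13 ± 0.10 (-0.10 to 0.35), and the remaining 4 genes at -0.04 to 0.03. As the Con libraries serve in all 3 of these comparisons, their values are not independent of each other.

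**Figure D3:**
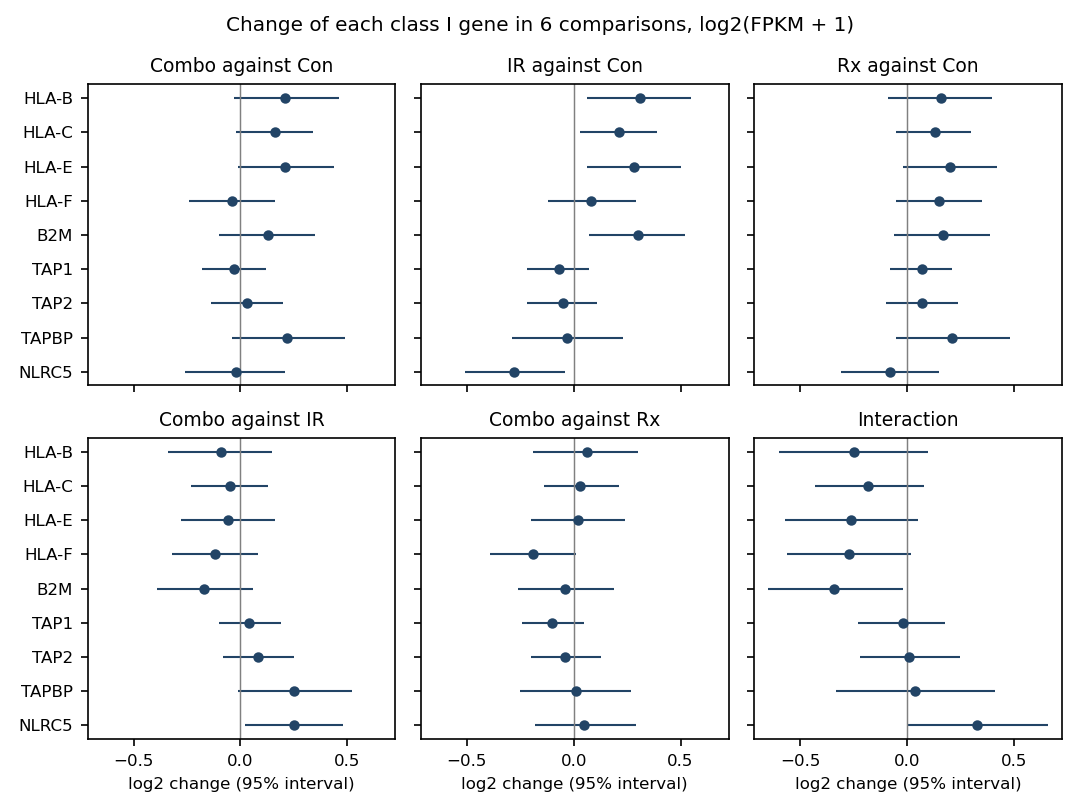
Log2 change with its 95% interval (horizontal axes, log2(FPKM + 1) scale) of each class I gene in Combo, IR and Rx against Con, in Combo against IR and against Rx, and in the interaction. In IR against Con the intervals of HLA-B, HLA-C, HLA-E and B2M lie above 0 and that of NLRC5 below 0, before any adjustment over genes.

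Adding QTP to radiation, Combo against IR, gave a median of -0.05 over the 9 genes, with 4 of 9 means higher, against -0.01 and 47.4% over all tested genes. Limma called 0 of the 9 and 0% of tested genes. TAPBP and NLRC5 had all Combo libraries above all IR libraries, 2 of 9, against 8.53% of tested genes. NLRC5 averaged 6.21 ± 0.486 FPKM in Combo and 5.09 ± 0.800 in IR (SD, n = 3 each), a log2 change of 0.25 ± 0.11 (SE; 95% interval 0.02 to 0.48; limma adjusted p = 0.260; 17.5% of tested genes had an unadjusted p under 0.05). Without IR 3 the NLRC5 change was 0.14. TAPBP averaged 24.2 ± 2.29 FPKM in Combo and 20.2 ± 1.59 in IR (SD, n = 3 each), a change of 0.25 ± 0.12 (SE; 95% interval -0.01 to 0.52; limma adjusted p = 0.301). B2M was at -0.17 ± 0.10 in Combo against IR (SE; 95% interval -0.39 to 0.06; limma adjusted p = 0.398), -0.11 without IR 3 or without Combo 2, and 0.05 after quantile normalization.

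Adding radiation to QTP, Combo against Rx, gave a median of 0.01, with 5 of 9 means higher, against -0.01 and 46.0% over all tested genes. Limma called 0 of the 9 and 0% of tested genes, and gave 0 of the 9 at an unadjusted p under 0.05, against 9.11%. HLA-F and TAP1 had all Combo libraries below all Rx libraries, 2 of 9, against 12.7% of tested genes, and 0 of 9 had them all above, against 8.26%. HLA-F averaged 7.06 ± 0.223 FPKM in Combo and 8.21 ± 0.874 in Rx (SD, n = 3 each), a log2 change of -0.19 ± 0.09 (SE; 95% interval -0.39 to 0.01; limma adjusted p = 0.559), or -0.12 without Rx 2. TAP1 averaged 18.9 ± 0.372 FPKM in Combo and 20.3 ± 0.447 in Rx (SD, n = 3 each), a change of -0.10 ± 0.07 (SE; 95% interval -0.24 to 0.05; limma adjusted p = 0.619). The changes of HLA-B, HLA-C, HLA-E and B2M were -0.04 to 0.06 in this comparison, against 0.21 to 0.31 for radiation without QTP. These 4 genes were singled out by their high values in IR, and that choice alone favours smaller values in the other arm. After quantile normalization their changes were 0.07 to 0.20 in Combo against Rx and 0.06 to 0.14 in IR against Con.

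That difference between the radiation effects with and without QTP is the interaction, and limma called it for 0 of the 9 and 0% of tested genes. It was positive for 3 of the 9, against 44.9% of tested genes, with a median of -0.18, against -0.03. B2M had an interaction of -0.34 ± 0.14 (SE; 95% interval -0.65 to -0.02; limma adjusted p = 0.609) and NLRC5 one of 0.33 ± 0.15 (0.00 to 0.66; limma adjusted p = 0.609). These were 2 of the 9 at an unadjusted p under 0.05, against 7.63% of tested genes. HLA-B stood at -0.25 ± 0.16, HLA-C at -0.18 ± 0.11, HLA-E at -0.26 ± 0.14 and HLA-F at -0.27 ± 0.13 (SE), with intervals that held 0. Single libraries moved these values, to -0.16 for HLA-B without Combo 2, -0.16 for HLA-E without Con 2 and -0.18 for HLA-F without IR 3. TPM moved the median of all tested genes in the interaction to 0.16, against -0.03, and gave B2M -0.14 and HLA-C 0.02, while quantile normalization gave B2M -0.06. Averaged over both radiation arms, QTP gave TAPBP 0.23 ± 0.08 (SE; 95% interval 0.04 to 0.42; limma adjusted p = 0.380), 1 of the 9 at an unadjusted p under 0.05, against 11.4%, while 12 other genes of the table (0.0920%) passed the adjusted threshold, a count that ran from 0 to 33 under the alternatives. Averaged over both QTP arms, radiation gave HLA-B 0.18 ± 0.08 (SE; 95% interval 0.01 to 0.36; limma adjusted p = 0.557), again 1 of the 9, against 8.51% of tested genes, and 0% passed the adjusted threshold.

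**Figure D4:**
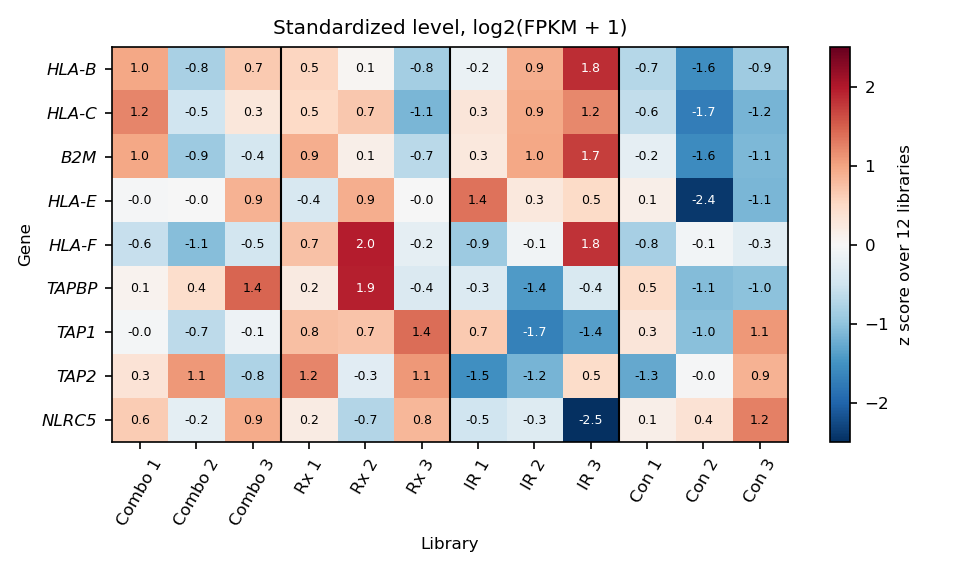
Standardized level of each class I gene in each library (rows genes, columns libraries; z score over the 12 libraries of log2(FPKM + 1), red above and blue below the gene's mean). HLA-B, HLA-C and B2M share their pattern, high in IR 3, Combo 1 and IR 2 and low in Con 2, while the rows of TAP1, TAP2 and NLRC5 differ from it.

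Among themselves, HLA-B, HLA-C and B2M followed each other closely over the 12 libraries. HLA-B and HLA-C had r = 0.93 (Spearman rho 0.94), and r was 0.85 after group means were removed and 0.92 without the 2 libraries farthest from the median. HLA-B and B2M had r = 0.91 (rho 0.91; 0.88 within groups; 0.83 without 2 libraries), and HLA-C and B2M r = 0.91 (rho 0.92; 0.90 within groups; 0.85 without 2 libraries). B2M lies on another chromosome, and its annotated transcript shares no 50-base stretch with another gene. The spans of HLA-B and HLA-C overlap, and 2.00% of the 50-base stretches of HLA-B occur in HLA-C. What part place or shared sequence has in these correlations was not tested. All values of a library share its scaling. HLA-E had r = 0.54 with HLA-B and 0.07 within groups. NLRC5 had r = -0.62 with B2M (rho -0.57; -0.32 within groups; -0.41 without 2 libraries). TAP1 and TAP2, whose products form a 1-to-1 pair, had r = 0.22 and a ratio of levels of 2.52 to 3.25. These values describe 36 pairs over the same 12 libraries and were not tested. Outside the set, the genes most like the mean of the 9 standardized profiles, out of all tested genes and over the same 12 libraries, were RILPL2 (r = 0.90), LAMP1 (0.86), PELO (0.85), ZNF622 (0.85) and DDIT3 (0.84).

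The neighbouring steps of the pathway were read from lists beside the 9 genes, with 0 list genes past limma's adjusted threshold in any comparison. The peptide loading and trimming partners (chaperones such as CALR, CANX and PDIA3, the trimming enzyme ERAP1 and the tapasin relative TAPBPL) had 9 of 9 genes tested. In Combo against Con 9 of 9 had a higher mean (median 0.10), in IR 7 of 9 (median 0.05) and in Rx 5 of 9 (median 0.08). The shares of tested genes with a higher mean were 48.5%, 52.6% and 51.7%. TAPBPL, which edits peptides on class I molecules, had 8.99, 8.11 and 8.43 FPKM in Combo, 9.01, 8.68 and 8.71 in Rx and 9.52, 8.69 and 9.23 in IR, against 7.67, 7.71 and 8.32 in Con. Its IR and Rx libraries were all above Con, with an IR change of 0.19 ± 0.06 (SE; limma adjusted p = 0.680). Of the 9 partners, 2 had all IR libraries above Con and 2 all Rx libraries, against 5.56% and 4.60% of tested genes. PDIA3, a disulfide isomerase of the loading complex, averaged 85.4 ± 6.11 FPKM in IR and 71.7 ± 5.36 in Con (SD, n = 3 each), a change of 0.25 ± 0.09 (SE; limma adjusted p = 0.704), and CALR averaged 189 ± 16.6 in IR and 159 ± 17.5 in Con (change 0.25 ± 0.11, adjusted p = 0.724). TAPBPL, PDIA3 and CALR had the largest IR changes of the 9 partners. CANX was at 0.05 ± 0.07 and ERAP1 at -0.06 ± 0.12 in IR against Con (SE).

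The immunoproteasome genes, which cut proteins into peptides suited to class I, had lower means in Combo than in Con. In Combo against Con 0 of 5 genes of the immunoproteasome and its PA28 activator had a higher mean, against 48.5% of tested genes. Their median was -0.22, against 0.03 in IR and 0.06 in Rx. All 5 overlapped Con, so 0 of 5 had all Combo libraries below Con, against 12.8% of tested genes. PSMB9 averaged 9.19 ± 1.58 FPKM in Combo, 11.7 ± 1.11 in Rx and 11.7 ± 1.45 in IR, against 11.7 ± 0.712 in Con (SD, n = 3 each), with a Combo change of -0.32 ± 0.12 (SE; 95% interval -0.58 to -0.06; limma adjusted p = 0.297). PSMB8 was at -0.22 ± 0.10 and PSME1, a subunit of PA28, at -0.23 ± 0.11 (SE; limma adjusted p = 0.380 for PSMB8 and 0.395 for PSME1). In Combo against Rx 4 of the 5 had all Combo libraries lower, against 12.7% of tested genes. The same held for 3 of the 3 constitutive subunits that the immunoproteasome subunits replace. Those 3 had a median of -0.20 in Combo against Con as well, and the ratio of PSMB8 to its constitutive counterpart PSMB5 was 0.379 to 0.449 over all libraries. In Combo against Con the 5 tested mesothelial markers had a median of -0.48, with 4 means lower and 1 higher (THBD, 0.13). The summed level of the 10 listed was 688 to 1033 FPKM in Combo, 938 to 1244 in Rx and 1026 to 1419 in IR, against 1026 to 1298 in Con. Most of that sum came from KRT8 and KRT18. The part of the marker shift in the proteasome values was not tested. In bulk RNA, fewer cells with a transcript and less of it per cell cannot be told apart.

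Of 18 listed regulators of class I transcription, 16 were tested, with medians of 0.04 in Combo, 0.04 in Rx and -0.00 in IR against Con. IRF1, a factor that binds the interferon-response element, averaged 4.58 ± 0.321 FPKM in Combo, 4.78 ± 0.399 in Rx and 4.98 ± 0.274 in IR, against 4.54 ± 0.135 in Con (SD, n = 3 each). RFX5, a DNA-binding partner of NLRC5, had changes of 0.02 in Combo and -0.03 in IR against Con. Of the 16 regulators, 2 had all Combo libraries above Con and 3 all below, against 10.0% and 12.8% of tested genes. In IR, 2 of the 16 were all above Con and 1 all below, against 5.56% and 4.98%. RFXANK, which forms a complex with RFX5, was among the 3 all below Con in Combo. It averaged 11.3 ± 0.451 FPKM in Combo and 13.2 ± 0.833 in Con (SD, n = 3 each), a change of -0.21 ± 0.08 (SE, limma adjusted p = 0.335). IFNGR1, a chain of the interferon gamma receptor, averaged 14.9 ± 0.984 FPKM in IR and 12.4 ± 0.752 in Con (SD, n = 3 each), a change of 0.25 ± 0.07 (SE; limma adjusted p = 0.680). Both were named after their values were seen. IRF9, another factor of the interferon response, averaged 0.530 FPKM and was below the filter. The 18 tested interferon-stimulated genes of 24 listed had medians of -0.00 in Combo, 0.15 in Rx and -0.01 in IR against Con.

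Class II genes were at very low levels: 1 of 9 listed passed the filter and 5 averaged under 0.1 FPKM, with the class II coactivator CIITA at 0.201 and the invariant chain CD74 at 0.184 FPKM. Of the other class I like genes and ligands, HLA-G had at most 1 read in any library. MICA, a stress ligand for the killer cell receptor NKG2D, averaged 7.13 ± 0.522 FPKM in Combo, 7.73 ± 1.93 in Rx and 5.83 ± 0.117 in IR, against 5.76 ± 0.537 in Con (SD, n = 3 each). Its Combo libraries were all above Con, with a change of 0.27 ± 0.13 (SE; 95% interval -0.02 to 0.55; limma adjusted p = 0.401). Of the 7 tested class I like genes and ligands, 3 had all Combo libraries above Con and 1 all below, against 10.0% and 12.8% of tested genes. The gene below was ULBP3, another listed ligand, at -0.34 ± 0.16 (SE; limma adjusted p = 0.386), named after its values were seen. CD274, the gene of the checkpoint ligand PD-L1, averaged 1.58 FPKM over all libraries, with a change of 0.09 ± 0.15 in Combo and 0.07 ± 0.15 in IR against Con (SE).

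**Figure D5:**
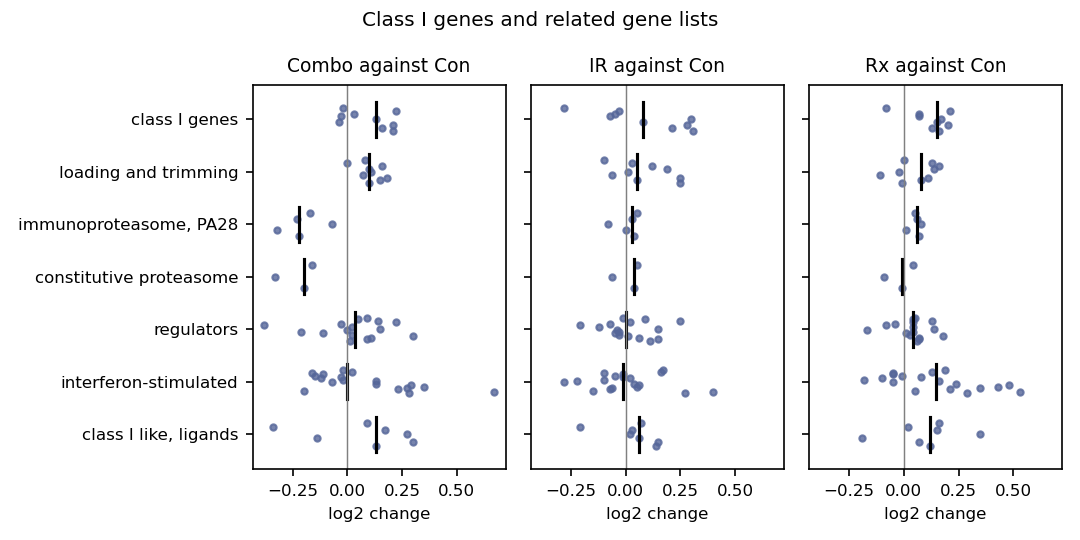
Log2 change (horizontal axes) of each tested gene of the class I set and of 6 related lists (rows) in Combo, IR and Rx against Con. Points are genes and vertical ticks list medians; in Combo the immunoproteasome list has a median of -0.22 and the class I genes one of 0.13.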

How the data were processed

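RNA sequencing of 12 libraries (4 groups of 3, from the sample titles) was analysed from 1 table. The authors deposited FPKM per gene with hg38 coordinates, per the file headers and the submitters' processing notes; the sources used here do not name the aligner, the counting tool, its strand setting or the scaling between libraries. Per the labels' protocols, total RNA was made into libraries with a NEBNext Ultra kit. Whole reads were recovered from FPKM and gene length, since the products fell on whole reads within 0.01 of a read for 100% of nonzero values. The identifiers and coordinates of all 58735 genes match GENCODE release 29. Value columns that match no sample numbered 0.

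Group means of log2(FPKM + 1), a scale that understates changes of low genes, were fitted by limma 3.58.1 (R 4.3.3) for the 13038 genes averaging 1 FPKM or more. The fit used a variance trend, moderated two-sided tests, Benjamini-Hochberg adjustment over all of them (threshold 0.05) and 1 spread for all 12 libraries; there were 8 comparisons. The test was checked on simulated data, in which 50 genes were changed in Combo at each size. It recovered 5 of 50 at 1.25-fold, 32 at 1.5-fold, 50 at 2-fold and 49 at 4-fold, with 5 false calls. Most changes of 1.25-fold were thus missed there, so the absence of a call does not show that small changes are absent. The simulated spread was a set value, not that of these libraries. Replicates were not repeats of the same library: the chi-square of their reads per degree of freedom was 7.84 to 44.8. Deviations from group means correlated above 0.1 in all same-numbered pairs of IR and Con (0.16 to 0.35) and of Rx and Con (0.19 to 0.28). In those of the other comparisons not all did (-0.21 to 0.21). The labels state no pairing, and whether the numbers of the titles pair these groups was not tested. The main fit did not use the numbers. Sequence counts and figures used Python 3.11.15. The members and lists were chosen with earlier results of these data known. Named genes are the 9 members, a set taken from the lists, and the 5 genes most like the members' mean profile; the rest of that set, and other class I genes, are not reported here. Alternatives were a pseudocount of 0.1, a filter at 0 or at 5 FPKM, TPM, median-of-ratios and quantile scaling, only the groups compared, no variance trend, the replicate number as a block, limma voom on the whole reads, a fit without IR 3 and Combo 3, and each library left out.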

Additional observations from a re-analysis of the deposited data

Results flagged for a closer look

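The effect of QTP on B2M had opposite signs with and without radiation. Every Combo library was below the IR mean, with a log2 change of -0.17, and every Rx library was above the Con mean, with 0.17. The groups overlapped in both comparisons: Combo 1 (247 FPKM) lay above IR 1 (230), and Rx 3 (208) lay below Con 1 (218). The difference was -0.34, and limma's interaction test gave it an adjusted p of 0.609. After quantile normalization the difference was -0.06 and Combo against IR was 0.05, so the opposite signs were not seen under that scaling. HLA-F had the same pattern against the means on the deposited scale, at -0.12 in Combo against IR and 0.15 in Rx against Con. The difference was -0.27 (limma adjusted p = 0.609). Its groups overlapped too: Combo 1 (7.14 FPKM) lay above IR 1 (6.91), and Rx 3 (7.39) below Con 2 (7.50). Without IR 3, its highest IR library, HLA-F was at -0.03 in Combo against IR, with a difference of -0.18, and after rescaling to TPM at -0.03, with a difference of -0.10.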

How the results depend on the processing

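Under all 23 alternative settings 0 of the 9 genes passed the adjusted threshold, and the lowest adjusted p of any of them, by limma, was 0.126 (NLRC5, Combo against IR, without IR replicate 1). Of 1629 values of single genes, 59 had the sign opposite to the main one, 10 of them over 1 SE from 0 in either fit. Rescaling to TPM moved the median of the 9 genes to -0.02 for IR against Con (all tested genes -0.09), 0.06 for Rx (-0.08), 0.06 for Combo set against IR (0.09), 0.10 for Combo set against Rx (0.07) and 0.02 for the interaction (0.16). It turned HLA-C (0.02) and TAP1 (0.17) in the interaction. Quantile normalization moved that median to 0.15 for Combo set against IR, 0.07 for Combo set against Rx and 0.05 for the interaction. It turned HLA-B (0.20), HLA-C (0.23), HLA-E (0.15) and B2M (0.05) in Combo against IR, B2M (0.07) with QTP averaged, and HLA-B (0.09), HLA-C (0.14) and HLA-E (0.01) in the interaction. Why the scalings differ was not tested; the median-of-ratios factor of the deposited FPKM was 1.01 in every library, so that rescaling left the values as they were. Without IR 3 and Combo 3 the median was -0.01 in IR against Con. With each library left out in turn it was 0.05 (without Combo 1) to 0.19 (without Combo 2) in Combo against Con, 0.09 (without Rx 2) to 0.21 (without Rx 3) in Rx against Con, and -0.01 (without IR 3) to 0.16 (without IR 1) in IR against Con. The same ranges were -0.04 to 0.05 for radiation averaged, with the highest without Rx 2, and -0.24 to -0.13 in the interaction, with the lowest without Rx 3.

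The replicate block changed no call of the 9 genes, and the median of the 9 stayed at 0.08 in IR against Con. Over all genes limma with the block called 90 in Combo against Con, against 0 without it, though same-numbered libraries did not all correlate there (r -0.06 to 0.21). That fit called 12 with QTP averaged and 3 with radiation averaged, and 0 in IR against Con and in Rx against Con. The 12 genes called with QTP averaged were 33 by limma voom, 23 after quantile normalization, 24 at a filter of 5 FPKM and 6 with no filter. They were 0 under TPM, with no variance trend, without IR 3 and Combo 3, and without each of 7 of the 12 single libraries. Without IR 1 limma called 956 genes in Combo against IR, again with 0 of the 9.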

Other observations

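A further 3 genes outside the naming rule were singled out after their values were seen. MR1, a class I like molecule that shows vitamin B metabolites to MAIT cells, averaged 4.03 ± 0.215 FPKM in Combo, 3.27 ± 0.0846 in Rx and 3.53 ± 0.145 in IR, against 3.08 ± 0.0179 in Con (SD, n = 3 each). All Combo, Rx and IR libraries were above all Con libraries, against 10.0%, 4.60% and 5.56% of tested genes for each group in turn. The same tight Con libraries serve in all 3. The log2 change of MR1 was 0.30 ± 0.06 in Combo against Con (SE; 95% interval 0.17 to 0.44; limma adjusted p = 0.122). HLA-DMA, a class II gene, averaged 2.06 ± 0.245 FPKM in Combo, 2.01 ± 0.468 in Rx and 1.85 ± 0.298 in IR, against 1.44 ± 0.124 in Con (SD, n = 3 each), a Combo change of 0.32 ± 0.13 (SE; limma adjusted p = 0.323). HLA-DMB, listed beside it, had 0 reads in every library. EZH2, a histone methyltransferase that can silence class I genes in tumours, averaged 4.73 ± 0.593 FPKM in Combo, 6.05 ± 0.322 in Rx and 5.46 ± 0.236 in IR, against 6.51 ± 1.18 in Con (SD, n = 3 each), a Combo change of -0.38 ± 0.11 (SE; 95% interval -0.62 to -0.14; limma adjusted p = 0.189).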
